A study of Mus musculus with 3 samples.

Results

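The microRNAs miR-21 and miR-31 were followed in 3 mouse cell types through the assays of both strands of each hairpin: mmu-miR-21, mmu-miR-21*, mmu-miR-31 and mmu-miR-31*, written here without the species prefix. They are 4 of the 709 microRNA assays of the screen, and all 4 were measured in every well. They were chosen by name with earlier results of these data known, and miR-31* was taken for its very low level in NSCs, so that difference is a description. The screen measured 1 sample each of NSCs, derived from mouse fetal forebrain, of mouse ESCs, which can form every tissue of the embryo, and of MEFs, connective tissue cells grown from mouse embryos. No treatment or genetic change is named for any of them. The design text says that equal amounts of total RNA were pooled, and the strains, the ages, the growth of the ESCs and MEFs and the number of cultures behind each sample are not given in the sources used here. Every sample was run 2 times by qRT-PCR with SYBR Green. The runs are technical repeats, so the errors below cover the PCR only and no test across samples was possible.

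A microRNA gene is transcribed as a hairpin that the enzymes Drosha and Dicer cut to a short duplex. Usually 1 strand of the duplex is kept in an Argonaute protein and guides it to messenger RNAs through its seed, and the older names mark the scarcer strand with a star. miR-21 is among the most abundant microRNAs of many cultured and tumour cells, is induced by growth and stress signals, and is known to repress Pdcd4. miR-31 is known from epithelial and mesenchymal cells, and in human breast cancer cells it represses RHOA and the integrin subunit ITGA5.

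The mature sequences of the 4 strands are shown because the seed sets which messenger RNAs a strand can bind, and because each strand had an assay of its own. They are RefSeq sequences of the mouse build GRCm38.p6, with the seed, bases 2 to 8 from the 5′ end, in capitals. The plain assay names were taken as the 5p arms and the star names as the 3p arms, which is how the older names of these hairpins are read.
miR-21 (miR-21a-5p): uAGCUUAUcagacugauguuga
miR-21* (miR-21a-3p): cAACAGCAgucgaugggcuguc
miR-31 (miR-31-5p): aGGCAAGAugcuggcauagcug
miR-31* (miR-31-3p): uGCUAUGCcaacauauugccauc
The 4 seeds differ from each other. Among the 1738 mature sequences of the RefSeq table, only miR-21c, for which the panel has no assay of that name, shares the seed of miR-21, and no other sequence has the seed of any of the remaining strands.

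The hairpins are shown with both arms in capitals, since the comparison of strands below depends on their coming from 1 precursor each.
Mir21a: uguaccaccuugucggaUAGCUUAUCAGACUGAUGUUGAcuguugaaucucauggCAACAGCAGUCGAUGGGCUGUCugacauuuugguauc
Mir31: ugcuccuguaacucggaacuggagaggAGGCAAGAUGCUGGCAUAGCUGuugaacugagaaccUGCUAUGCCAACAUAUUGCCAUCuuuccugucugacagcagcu
In GRCm38.p6 the Mir21a hairpin lies at chr11:86584067-86584158 on the minus strand, within the span of Vmp1, a protein-coding gene known for its role in autophagy. The Mir31 hairpin lies at chr4:88910557-88910662 on the minus strand, within the span of the long non-coding RNA gene Gm49890. The table used here gives gene spans without exons, so exonic and intronic positions were not told apart.

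A Ct counts the PCR cycles needed before product is seen, and each cycle fewer means roughly 2 times more template. To obtain the delta Ct, the runs were averaged and the average of 3 small RNAs of that plate and sample, U6, RNU43 and U1, was subtracted, so a lower delta Ct is a higher level. A log2 fold is one sample's delta Ct taken from that of the other, with negative values for a lower level in the sample named first. Calls of higher or lower needed a fold of 4 or more, no overlap of runs between the samples, and an average Ct of 32 or earlier in the sample with more. miR-21 and miR-31 were on plate 1 and their star strands on plate 2. Across the panel 686 microRNAs were measured in NSCs, 680 in ESCs and 700 in MEFs. The cell type markers fitted the labels in part. Of 3 neural microRNAs, miR-9 and miR-9* were called higher in NSCs than in ESCs and in MEFs, whereas miR-124, a microRNA of neurons, was not called, at log2 folds of 1.10 over ESCs and 1.13 over MEFs. Of 11 listed strands of the miR-290 and miR-302 clusters, which mark pluripotent cells, 10 were higher in ESCs than in NSCs and in MEFs. The other measured strands of these hairpins had log2 folds from 0.20 (miR-302b*) to 4.73 (miR-294*) for ESCs over MEFs. Of 8 fibroblast markers, 7 were lower in NSCs than in MEFs, but only miR-199a-5p was lower in ESCs than in MEFs. A further set of MEF Ct values accompanies the study and differs from the deposited set in all 8 MEF wells of the 4 assays, whereas all 8 NSC and all 8 ESC wells are equal within 0.001 cycles. Over the whole panel, 0 of 1351 MEF wells found in both sets were equal, against all 1362 NSC and all 1335 ESC wells. Every value against MEFs below holds for the deposited set.

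miR-21 was the most abundant of the 4 strands in all 3 cell types and was lowest in NSCs. Runs 1 and 2 gave a Ct of 23.85 and 23.97 for NSCs, of 23.31 and 23.23 for ESCs, and of 19.90 and 19.95 for MEFs. After the reference RNAs were subtracted, its delta Ct was -0.020 in NSCs, -2.62 in ESCs and -4.42 in MEFs, so that it ran level with the references in NSCs and well ahead of them in the other cells. The runs of the 3 cell types did not overlap. The log2 fold of NSCs over MEFs was -4.40 ± 0.064, a level 21.1-fold lower in NSCs. That of NSCs over ESCs was -2.60 ± 0.072, or 6.07-fold lower in NSCs. It was -5.23 with miR-16 and -1.63 with RNU43 alone as the reference, beside medians of all microRNAs of -2.96 and 0.56. The mean of the reference RNAs on plate 1 came 1.96 cycles later in ESCs than in NSCs. ESCs stood between the others, with a log2 fold of -1.80 ± 0.045 over MEFs, which is 3.47-fold lower in ESCs and below the 4-fold limit. With miR-16 as the reference this fold was 0.051, beside a median of 1.60 for all microRNAs. By delta Ct, miR-21 ranked 40 of the 686 microRNAs measured in NSCs, 21 of 680 in ESCs and 9 of 700 in MEFs. Ranks compare assays with different primers, whose efficiencies are not known. Low as it was beside MEFs, miR-21 therefore remained among the earlier assays in NSCs.

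miR-21*, the other strand of the same hairpin, was scarce in all 3 cell types and lay 3.21-fold lower in NSCs and 2.40-fold lower in ESCs than in MEFs, below the 4-fold limit. The Ct values were 31.44 and 31.72 for NSCs, 33.22 and 33.27 for ESCs, and 30.18 and 30.26 for MEFs. In delta Ct this was 7.51 in NSCs, 7.09 in ESCs and 5.83 in MEFs, the same order as for miR-21 in a narrower range. The log2 fold was -1.68 ± 0.14 for NSCs over MEFs, -0.42 ± 0.14 for NSCs over ESCs and -1.26 ± 0.046 for ESCs over MEFs, and none of them reached 4-fold. Scaled to miR-16, ESCs over MEFs gave 0.36, beside a median of 1.60 for all microRNAs. Its ESC wells came after a Ct of 32, and with later wells set to 32 the log2 fold was -1.67 for NSCs over ESCs and -0.017 for ESCs over MEFs. For NSCs over ESCs it was 0.56 with RNU43 alone and 0.26 with the mean of the microRNAs as the reference, beside medians of all microRNAs of 0.56 and 0.26, so that miR-21* lay at the median under each, as it did with the 3 reference RNAs (-0.42 for both). The raw Ct of miR-21* was earlier in NSCs than in ESCs, and this order turned once the reference RNAs, which all came later in ESCs, were subtracted. On plates 1 and 2, U6 came 2.59 and 2.56 cycles later in ESCs than in NSCs, U1 2.31 and 2.60 cycles, and RNU43 0.99 and 1.11 cycles.

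**Figure D1:**
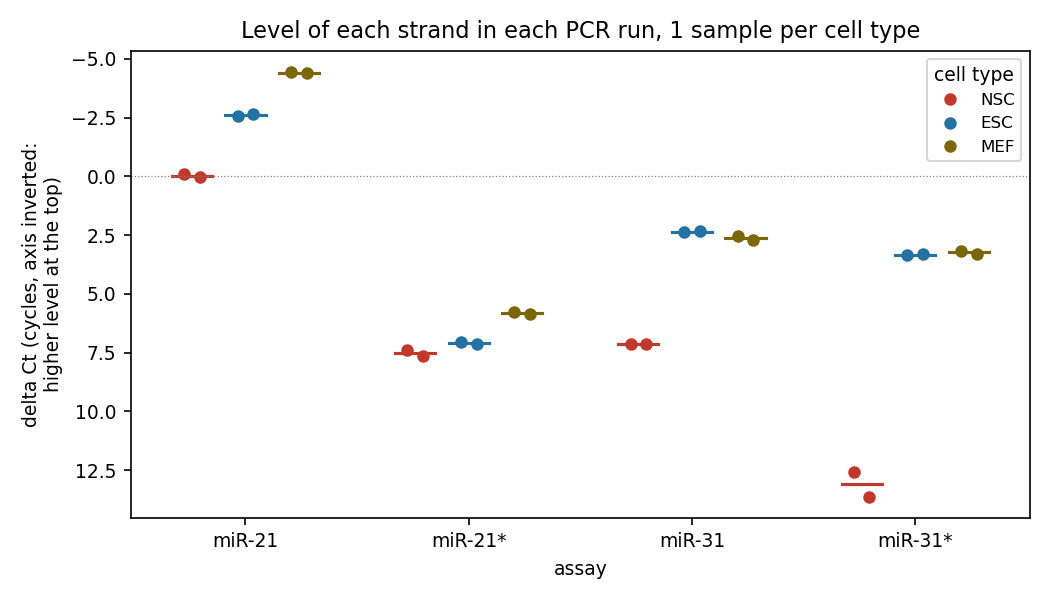
Delta Ct in cycles of the 4 assays in NSCs, ESCs and MEFs, with the axis inverted so that higher levels lie at the top; points are the 2 PCR runs and bars their mean. miR-31* in NSCs lies at the bottom, with a delta Ct of 13.10, while its ESC and MEF points lie close together at 3.33 and 3.24.

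miR-31 had nearly the same level in ESCs and MEFs and a much lower level in NSCs. NSCs gave a Ct of 31.07 and 31.05, ESCs of 28.28 and 28.22, and MEFs of 26.87 and 27.03. The delta Ct was 7.13 in NSCs, 2.36 in ESCs and 2.61 in MEFs, and the NSC runs lay apart from the others. The log2 fold of NSCs was -4.53 ± 0.084 over MEFs and -4.77 ± 0.034 over ESCs, that is 23.0-fold and 27.4-fold lower in NSCs. Between ESCs and MEFs the log2 fold was 0.25 ± 0.089, beside a median of -0.11 for all microRNAs. With U1 alone as the reference it was -0.093, beside a median of -0.33. miR-31 ranked 387 of 686 microRNAs in NSCs, 120 of 680 in ESCs and 130 of 700 in MEFs. It thus lay below the middle of the panel in NSCs and in its upper part in ESCs and MEFs.

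miR-31* was also lowest in NSCs, and by a larger distance. In NSCs it was read at a Ct of 36.65 and 37.69, in ESCs at 29.50 and 29.47, and in MEFs at 27.55 and 27.70. The NSC wells came far later than all others, near the end of the run, and were also the least precise, with an SD of 0.74 cycles between runs against 0.024 in ESCs and 0.11 in MEFs. The delta Ct was 13.10 in NSCs, 3.33 in ESCs and 3.24 in MEFs. The log2 fold of NSCs over MEFs was -9.87 ± 0.53 and that of NSCs over ESCs -9.77 ± 0.52. These stand for levels 933-fold and 876-fold lower in NSCs. With later wells set to a Ct of 35, the differences were -7.69 over MEFs and -7.60 over ESCs on the log2 scale, and with a limit of 32 they were -4.69 and -4.60, each the smallest difference that such a limit leaves. By its measured wells the log2 fold of miR-31* over MEFs was the lowest of 685 microRNAs, but within the PCR error of miR-379 at -9.57 ± 0.19 and miR-199a-3p at -9.50 ± 0.69. With the limit of 35 it lay above miR-199a-5p, at -8.28 ± 0.32. Over ESCs it ranked 7 from the lowest of 678. ESCs over MEFs gave a log2 fold of -0.091 ± 0.077 for miR-31*, close to the median of -0.11 for all microRNAs, and of 0.048 with RNU43 alone, beside a median of 0.056. It ranked 660 of 686 in NSCs, 183 of 680 in ESCs and 160 of 700 in MEFs.

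**Figure D2:**
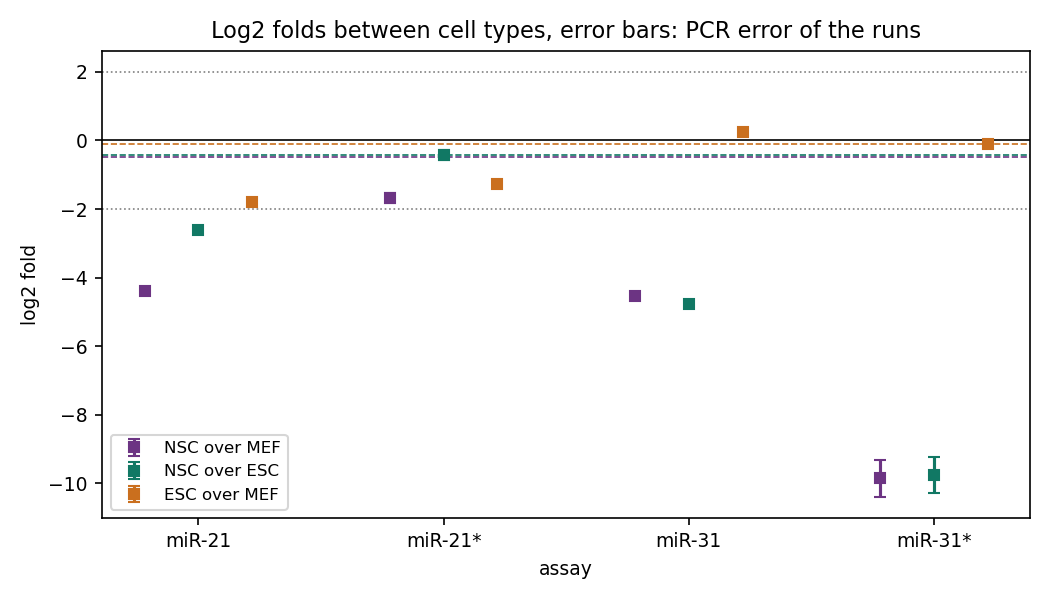
Log2 folds of the 4 assays for NSCs over MEFs, NSCs over ESCs and ESCs over MEFs; error bars give the PCR error, dashed lines the median of all microRNAs and dotted lines 4-fold. miR-31* lies at -9.87 and -9.77 in both NSC comparisons, and all ESC over MEF values lie within the 4-fold lines.

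In all, 3 of the 4 strands, miR-21, miR-31 and miR-31*, were called lower in NSCs than in MEFs, where 13.9% of the 685 microRNAs measured in both were called lower and 1.75% higher. The same 3 strands were called lower in NSCs than in ESCs, where 14.9% of 678 were called lower and 2.95% higher. None was called between ESCs and MEFs, where 3.24% of 679 were called lower in ESCs and 5.3% higher. The median log2 fold of the 4 strands was -4.46 for NSCs over MEFs, -3.69 for NSCs over ESCs and -0.68 for ESCs over MEFs, beside -0.48, -0.42 and -0.11 for all microRNAs. Both NSC comparisons share the NSC wells, and the members were chosen with these values known, so the counts are descriptions. With U6 alone, U1 alone or miR-16 as the reference, miR-21* was also called lower in NSCs than in MEFs. Its log2 folds were -2.12, -2.36 and -2.56, beside medians of all microRNAs of -0.94, -1.16 and -1.32. The calls lower over all microRNAs rose from 95 to 131, 153 and 167. With a fold limit of 2 miR-21* was called as well, and 183 of all microRNAs were called lower. With RNU43 alone, miR-21 was no longer called against ESCs, at -1.63, and neither was it with the mean of the microRNAs as the reference, at -1.93. RNU43 alone moved the median of all microRNAs up by 1.15 in the comparison with MEFs and by 0.98 in that with ESCs, and the calls over all microRNAs became 60 lower and 50 higher against MEFs, in place of 95 and 12, and 76 lower and 56 higher against ESCs, in place of 101 and 20.

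**Figure D3:**
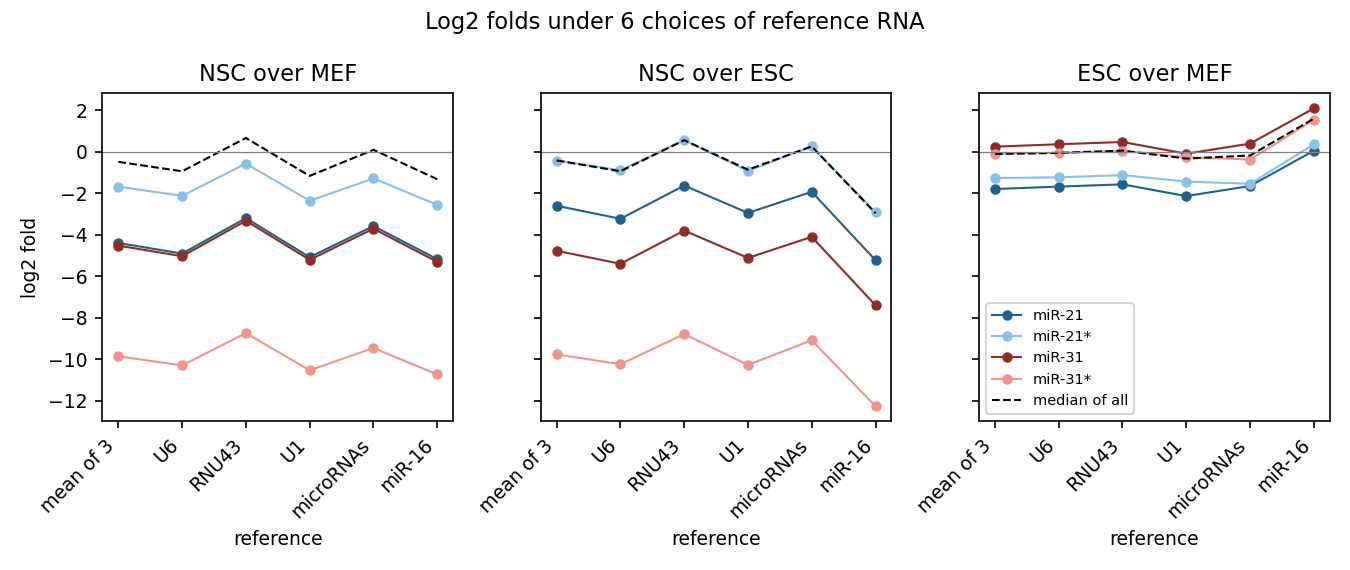
Log2 folds of the 4 assays with each of 6 references (the mean of U6, RNU43 and U1, each of these alone, the microRNAs that came by a Ct of 32, averaged, and miR-16); the dashed line is the median of all microRNAs. The lines shift together, miR-21, miR-31 and miR-31* stay below the median in both NSC comparisons, and miR-21* runs along the median for NSCs over ESCs.

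Within each cell type the 2 strands of a hairpin were set against each other. The strand difference is the delta Ct of the star strand minus that of the named strand, and it includes the unknown efficiencies of 2 assays on different plates, which cancel between cell types where they are constant. For miR-21 it was 7.53 ± 0.15 cycles in NSCs, 9.71 ± 0.045 in ESCs and 10.25 ± 0.047 in MEFs. The miR-21 strand was thus ahead of its star by a wide margin everywhere, and by the smallest in NSCs. For miR-31 the difference was 5.97 ± 0.52 cycles in NSCs, 0.97 ± 0.036 in ESCs and 0.63 ± 0.11 in MEFs. In NSCs the star strand of miR-31 was far behind the other, while in ESCs and MEFs both were read at similar levels.

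The change of the strand difference between cell types, given as the log2 fold of the star strand minus that of the named strand, ran in opposite directions for the 2 hairpins. For NSCs over MEFs it was 2.71 ± 0.16 for miR-21 and -5.34 ± 0.54 for miR-31, and for NSCs over ESCs it was 2.18 ± 0.16 for miR-21 and -5.0 ± 0.53 for miR-31. For ESCs over MEFs it was 0.53 ± 0.065 for miR-21 and -0.34 ± 0.12 for miR-31. With later wells set to a Ct of 32, which moves miR-21* in ESCs, the miR-21 value was 0.94 for NSCs over ESCs and 1.78 for ESCs over MEFs. A reference on each plate enters it, but with U6, RNU43 or U1 alone the value for miR-31 lay between -5.42 and -5.27 over MEFs and between -5.16 and -4.84 over ESCs. The size for miR-31 rests on the late NSC wells of miR-31*. It shrank to -3.17 over MEFs and -2.83 over ESCs with later wells set to a Ct of 35, and with a limit of 32 it was -0.17 and 0.17, because miR-31 itself came at a mean Ct of 31.06 in NSCs.

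Among all pairs of strands on the panel measured in NSCs and MEFs, 171 in number, the miR-31 pair had the 11th largest absolute change and the miR-21 pair the 32nd, with a median of 1.00 over the pairs. In NSCs and ESCs, with 167 pairs and a median of 1.51, they ranked 23 and 66. The pairs with the largest changes were those of miR-196a, miR-325 and miR-466c against MEFs, and those of miR-879, miR-302b and miR-295 against ESCs. In the pairs of miR-196a and miR-466c against MEFs and of miR-302b against ESCs, a strand came after a Ct of 32 in both cell types compared. Of the 28 star pairs whose named strand was called lower in NSCs than in MEFs, the log2 fold of the star strand lay above that of the named strand in 25, as for miR-21. In the remaining 3 it lay below, with a difference of -5.34 for miR-31, -1.81 ± 0.87 for miR-300 and -0.072 ± 0.75, well within its PCR error, for miR-136. Against ESCs the star strand lay above in 30 of 33 pairs, and the lowest of the other 3 was again miR-31 at -5.0. Over all 104 star pairs, whatever the named strand did, the star strand lay above in 58 against MEFs and in 60 against ESCs. For some of the pairs with the star strand above, among them those of miR-10b and miR-145, the star strand came after a Ct of 32 in all 3 cell types. A lower level of so late a strand in NSCs could hardly be read. Pairs picked for a low named strand lean to a star strand that lies above it, and miR-31* was chosen for its level, so its place here is a description.

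**Figure D4:**
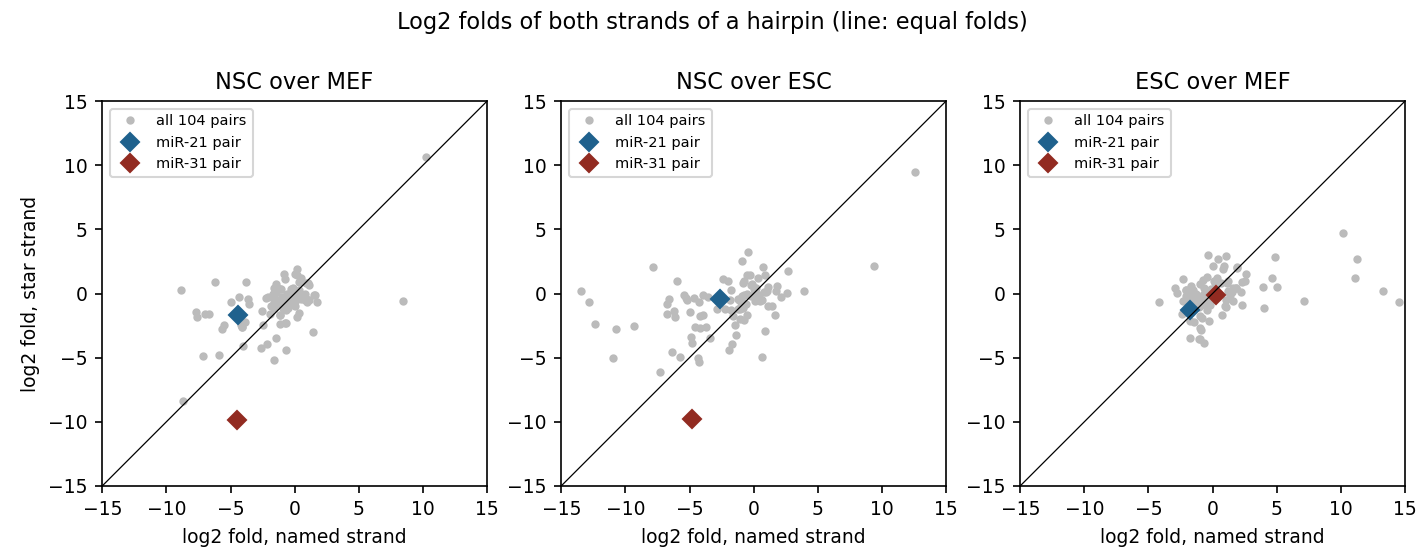
Log2 fold of the star strand against that of the named strand for 104 pairs in each comparison; the line marks equal folds. The miR-31 pair lies below the line at -4.53 and -9.87 for NSCs over MEFs, the miR-21 pair above it at -4.40 and -1.68, and both lie near the line for ESCs over MEFs.

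The microRNAs with the most similar pattern were found by the distance between their 2 log2 folds, NSCs over MEFs and NSCs over ESCs, among 644 microRNAs with all 6 wells measured. Over 3 cell types such a likeness is a weak measure. For miR-31* the nearest were miR-379 (distance 0.65), miR-199a-3p (1.53) and miR-196a (2.16). miR-379 belongs to the imprinted Dlk1-Dio3 cluster, miR-199a-3p is a microRNA of mesenchymal cells and miR-196a is encoded in the Hox clusters. miR-379 had log2 folds of -9.57 ± 0.19 over MEFs and -9.19 ± 0.11 over ESCs. For miR-31 the nearest were miR-411* (0.33), miR-380-5p (0.34) and miR-496 (0.39), all from the Dlk1-Dio3 cluster. For miR-21 they were miR-770-5p (0.47), whose runs differed widely, miR-34b-5p (0.61), known as a target of p53, and miR-300* (0.79). For miR-21* they were miR-127* (0.11), miR-150* (0.12) and miR-1939 (0.12). Membership of the Dlk1-Dio3 cluster was not compared between the neighbours of the strands, so its naming here does not set miR-31 and miR-31* apart.

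Of 7 further microRNAs known to respond to growth and stress signals, 3 were called lower in NSCs than in MEFs. They were miR-155, a microRNA of activated immune cells, at a log2 fold of -2.78 ± 0.26, and the clustered pair miR-221 and miR-222, which repress the cell cycle inhibitor Cdkn1b, at -3.0 ± 0.12 and -3.04 ± 0.023. Against ESCs only miR-221 and miR-222 were called lower, at -2.93 ± 0.080 and -2.76 ± 0.058. miR-132, miR-212, miR-146a and miR-146b were not called in either. The median log2 fold of the 7 was -1.66 over MEFs and -0.96 over ESCs, and none was called between ESCs and MEFs. Over all microRNAs these medians were -0.48 and -0.42, and 13.9% and 14.9% were called lower in NSCs. Against MEFs, miR-21 and miR-31 had larger differences than each of these 7, whereas against ESCs miR-21, at -2.60, differed less than miR-221 and miR-222.

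The fibroblast and mesenchymal microRNAs moved in the same direction as miR-21, miR-31 and miR-31*. Of 12 listed, 11 were measured in NSCs, and 10 of these 11 were called lower there than in MEFs and the same 10 lower than in ESCs, with median log2 folds of -6.62 and -5.79. miR-214 was the exception, at -1.58 ± 0.071 and -0.53 ± 0.18. Their summed level, as the sum of 2 to the power of the negative delta Ct, was 0.0846 in NSCs, 1.5 in ESCs and 3.94 in MEFs, where the MEF sum also holds miR-22, unmeasured in the other cells. Over the 8 fibroblast markers, which were measured in all 3, it was 0.0784 in NSCs, 1.34 in ESCs and 3.61 in MEFs. Most of both NSC sums came from miR-214, the exception above, which had a delta Ct of 3.99 in NSCs. The Ct values of the full list reached from 27.92 to 36.01 in NSCs, from 26.67 to 30.70 in ESCs and from 24.03 to 28.75 in MEFs, and 3, 11 and 12 of the 12 came at a Ct of at most 32. The ESC sample therefore carried this list together with miR-31 and miR-31*, and the part of fibroblast RNA in the ESC levels of the 4 strands was not tested. In a sample of RNA, fewer cells that hold a microRNA and less of it per cell cannot be told apart.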

How the data were processed

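MicroRNA levels were measured by qRT-PCR with the Mouse miRNome Sanger miRBase profiling set in 1 sample each of NSCs, ESCs and MEFs, with 2 runs on 2 plates of 380 and 329 microRNA assays. The authors deposited Ct values, in cycles, for every well, with a delta Ct for each sample. The sources used here do not give how the Ct threshold was chosen. The deposited delta Ct equals the one computed here within 0.01 cycles, but for the ESCs on plate 1 all 356 deposited values lie 6.90 cycles lower, so delta Ct was taken anew from the Ct values. RNU43 had 1 ESC well on plate 1. The deposited fold changes and p-values are the authors' own comparisons and were not used.

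The mean of the runs was taken. The error of a log2 fold joins the standard errors of the runs of both samples as the root of their summed squares. All 709 microRNAs were processed alike, and the computation was tested on simulated Ct values. The simulated wells had the same noise at every Ct, so this does not cover the wider spread of late wells. The members and lists were chosen with earlier results of these data known. Named microRNAs are the 4 strands, list members, the 3 nearest patterns per strand and the pairs with the largest strand changes; miR-300 and miR-136 were named after their values were seen. Alternatives were 5 other references, Ct limits of 32 and 35, each run alone, 1.9-fold amplification per cycle, no Ct limit, and folds of 2 and 8. As a reference, miR-16 was read on plate 1 and used for both plates. Sequences came from RefSeq, in which all 4 strands were found. Python 3.11.15, pandas 2.3.3, numpy 2.4.6 and matplotlib 3.10.9 were used.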

Additional observations from a re-analysis of the deposited data

How the results depend on the processing

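The log2 folds of miR-21, miR-31 and miR-31* for NSCs over MEFs and NSCs over ESCs stayed below 0 in all 10 alternatives in which log2 folds were computed anew. Some of these could not turn a sign. Setting late wells to a Ct limit left miR-21 and miR-31 unchanged in both comparisons and moved only miR-31*. The lower amplification per cycle rescales every fold by the same factor. For NSCs over MEFs, 3 or 4 of the 4 strands were called in each of 13 alternatives, and for NSCs over ESCs 2 or 3. The count was 2 with RNU43 alone, with the mean of the microRNAs as the reference and with a fold of at least 8, and miR-21 was the strand lost. For ESCs over MEFs no strand was called, against 1 with U1 alone (miR-21, lower in ESCs), 1 with miR-16 as the reference (miR-31, higher in ESCs) and 2 with a fold of at least 2 (miR-21 and miR-21*, lower in ESCs). miR-16 moved the median of all microRNAs by 1.70 in that comparison and by -2.55 for NSCs over ESCs, so the signs it gives do not place a strand against the others. Over all microRNAs, the calls lower in NSCs than in MEFs were 95, and between 60 (RNU43 alone) and 183 (2-fold) in the alternatives. Lower than in ESCs were 101, and between 76 (RNU43 alone and 8-fold) and 334 (miR-16). Calls lower in ESCs than in MEFs were 22, and between 1 (miR-16) and 97 (2-fold). Calls higher were 12 for NSCs over MEFs, between 6 (8-fold) and 50 (RNU43 alone), 20 for NSCs over ESCs, between 5 (miR-16) and 57 (2-fold), and 36 for ESCs over MEFs, between 20 (8-fold) and 161 (miR-16). With each run alone, the log2 fold of miR-31* was -9.42 and -10.31 over MEFs and -9.23 and -10.32 over ESCs. No paired analysis was possible because each cell type had 1 sample. Late wells limit miR-31* in NSCs and miR-21* in ESCs.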
